A study of Mus musculus with 4 samples.

Results

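The miR-106b/miR-25 and miR-106a/miR-363 clusters are paralogs of the miR-17/miR-92a cluster, and 9 of their mature products were examined in aortas of mice with chronic kidney disease (CKD). They were taken by name from the 1152 entries of the deposited tables, 5 from miR-106b/miR-25 (miR-106b-5p, miR-106b-3p, miR-93-5p, miR-93-3p and miR-25-3p) and 4 from miR-106a/miR-363 (miR-106a-5p, miR-18b-5p, miR-20b-5p and miR-363-3p). All 9 were listed, and none held the same values as another entry in all 4 libraries. Small RNA was sequenced from aortas of wild type C57BL/6 mice at 12 weeks of age, in 2 CKD and 2 Sham libraries. Each library pooled the RNA of 4 samples, so the spread between libraries is that between pools, and the p-values measure only this spread. In the CKD model parts of the left kidney were excised, the right kidney was taken out 1 week later, and a diet with 2% phosphate and drinking water with 0.45% NaCl were given for 4 weeks. The labels give the same treatment wording for both groups, so the handling of the Sham mice is not known from them.

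MicroRNAs (miRNAs) are short RNAs that pair with messenger RNAs mainly through their seed, bases 2 to 8, and lower the output of those messengers. The miR-17 group of seeds is known for promoting cell cycle entry and survival: miR-106b and miR-93 repress the cell cycle inhibitor Cdkn1a, miR-25 represses the apoptosis factor Bcl2l11, and miR-18 represses the matrix gene Ctgf. miR-106b/miR-25 is transcribed with its host gene Mcm7, which encodes a subunit of the DNA replication helicase, whereas miR-106a/miR-363 has its own transcript and is known to be little used in most adult mouse tissues. Mice that lack either cluster are known to be viable.

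In the GRCm38 assembly the 3 hairpins of miR-106b/miR-25 lie on the minus strand at chr5:138165321-138165818, within intron 13 of the coding transcripts of Mcm7 on the same strand. Mir93 and Mir25 also overlap an exon of another annotated Mcm7 transcript. The 6 hairpins of miR-106a/miR-363 lie on the minus strand at chrX:52741693-52742567 and fall inside no annotated host gene. The mature sequences, from the RefSeq table of GRCm38.p6, matched for all 9 members and are shown because the seeds define the groups compared here. Capitals mark the seed, and the first 4 sequences share the seed of miR-17-5p and the next 2 that of miR-92a-3p.
miR-106b-5p: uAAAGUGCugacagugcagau
miR-93-5p: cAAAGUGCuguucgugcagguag
miR-106a-5p: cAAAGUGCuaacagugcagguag
miR-20b-5p: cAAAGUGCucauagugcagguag
miR-25-3p: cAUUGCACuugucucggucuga
miR-363-3p: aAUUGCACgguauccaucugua
miR-18b-5p: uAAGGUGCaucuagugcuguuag
miR-106b-3p: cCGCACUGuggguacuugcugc
miR-93-3p: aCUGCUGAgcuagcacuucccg

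The closest relatives, from the miR-17/miR-92a cluster at chr14:115043671-115044506, are shown because some differ from a member by 1 or 2 bases.
miR-17-5p: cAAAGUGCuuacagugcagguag
miR-20a-5p: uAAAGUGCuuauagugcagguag
miR-18a-5p: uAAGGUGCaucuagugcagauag
miR-92a-3p: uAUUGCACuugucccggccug
Counted from 1 at the 5′ end, miR-106a-5p differs from miR-17-5p by U10A alone, miR-20b-5p from miR-20a-5p by U1C and U10C, and miR-18b-5p from miR-18a-5p by A18U and A20U. How reads that match such neighbours with a mismatch were assigned is not stated, so the values of miR-106a-5p, miR-20b-5p and miR-18b-5p are uncertain. The 2 members of the miR-92a seed group are farther apart, with 13 differences over 22 bases between miR-25-3p and miR-363-3p.

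The deposited values are counts per 1000000 listed reads (CPM), and the reads behind them were recovered as whole numbers, 17532748 and 16658810 in the CKD libraries and 17520690 and 16878392 in the Sham libraries. A count of 3 reads corresponds to 0.171 to 0.180 CPM. Tissue markers were present throughout: the smooth muscle miRNA miR-143-3p alone held 411359 and 407824 CPM in CKD and 798183 and 725182 CPM in Sham, and the endothelial miR-126a-3p 7510 and 7457 CPM in CKD and 2208 and 2626 CPM in Sham. The other 3 smooth muscle entries were higher in both CKD libraries on this scale, with 2619 and 2019 CPM in CKD against 1272 and 1423 CPM in Sham for miR-143-5p, 67970 and 75726 CPM in CKD against 33419 and 47242 CPM in Sham for miR-145a-5p, and 3665 and 3139 CPM in CKD against 821 and 1142 CPM in Sham for miR-145a-3p. Since the values of a library sum to a fixed total, the smaller share of miR-143-3p in CKD goes with higher deposited values of most other entries, with a median log2 difference of 1.34 over the 479 entries with a mean of at least 1 CPM. Each difference is therefore given on this scale and again after trimmed-mean (TMM) scaling, which removes the shift shared by most entries and leaves their median at 0.00. On the TMM scale the log2 difference was -2.48 for miR-143-3p (adjusted p = 0.012 by limma) and -0.81 for miR-143-5p (adjusted p = 0.080). It was -0.73 for miR-145a-5p (adjusted p = 0.044 by limma) and 0.22 for miR-145a-3p (adjusted p = 0.29). For the endothelial miR-126a-3p it was 0.05 (adjusted p = 0.86 by limma). In bulk tissue, a change in the number of cells of a type and a change in RNA per cell cannot be told apart.

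The miR-106b/miR-25 products dominated, and miR-106a/miR-363 held few reads in CKD 1 and Sham 1. The miR-106b/miR-25 members summed to 857 and 876 CPM in the CKD libraries, against 198 and 349.5 CPM in the Sham libraries. The miR-106a/miR-363 members summed to 2.51 and 20.3 CPM in the CKD libraries, against 1.03 and 10.1 CPM in the Sham libraries. The miR-106a/miR-363 sums rest on 44 and 338 reads in CKD and on 18 and 171 reads in Sham. The 5 miR-106b/miR-25 members thus exceeded the 4 miR-106a/miR-363 members in every library, by 342 and 43.2 times in the CKD libraries and by 193 and 34.5 times in the Sham libraries. The second sum leaves out miR-19b-3p and miR-92a-3p, which the X-linked and the chromosome 14 cluster both encode with the same sequence, so these ratios hold for the unshared products and not for the output of the whole cluster. A read covers a whole miRNA, so CPM needs no correction for length, but adaptor ligation is known to favour some sequences and no correction for it is stated. The Wilson 95% interval of the second sum ran from 1.87 to 3.37 CPM in CKD 1 and from 18.2 to 22.6 CPM in CKD 2, and from 0.650 to 1.62 CPM in Sham 1 and from 8.72 to 11.8 CPM in Sham 2. Such intervals cover counting error only. Per 1000000 reads other than those of miR-143-3p, the miR-106b/miR-25 sum was 1457 and 1479 in the CKD libraries, against 982 and 1272 in the Sham libraries, without overlap. On the same basis the miR-106a/miR-363 sum was 4.26 and 34.3 in the CKD libraries, against 5.09 and 36.9 in the Sham libraries, with overlap. Leaving out miR-143-3p moves CKD against Sham less than TMM scaling does, so part of the shared shift remains. The share of all entries without overlap on this basis was not determined. After TMM scaling 1 of the 5 miR-106b/miR-25 members had both CKD libraries above both Sham libraries.

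**Figure D1:**
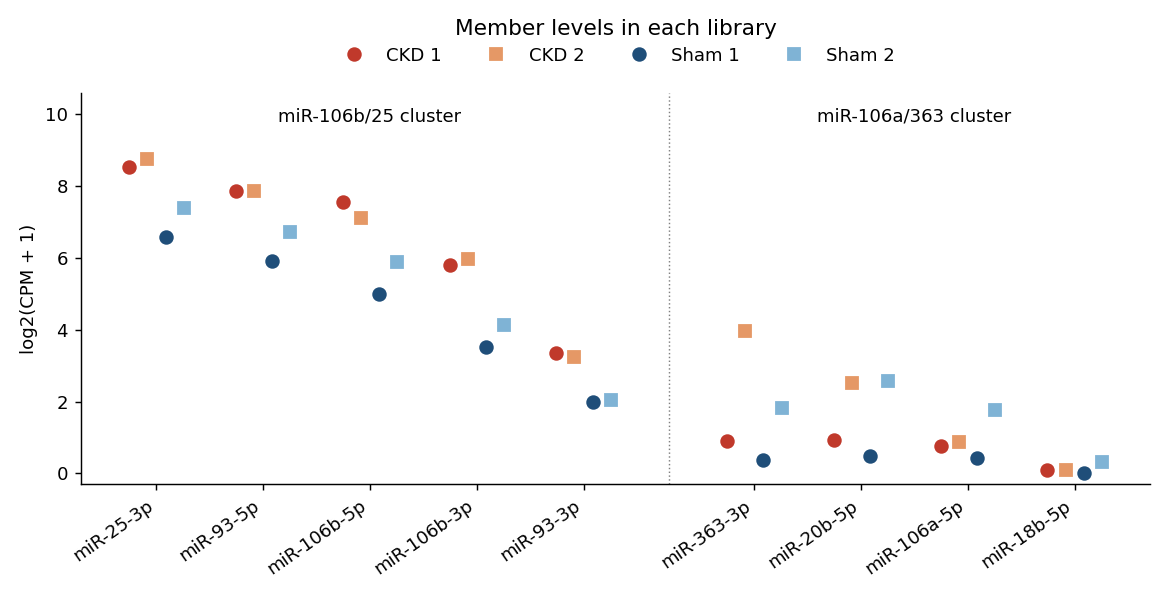
Level of each member as log2(CPM + 1) in the 2 CKD libraries (red and orange) and the 2 Sham libraries (dark and light blue), circles for the first and squares for the second library of a group. For all 5 miR-106b/miR-25 members the CKD points lie above the Sham points, while the miR-106a/miR-363 members lie below 4 on this scale in every library and are highest in CKD 2 or Sham 2.

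All 5 miR-106b/miR-25 members were called higher in CKD on the deposited scale, and none of the 3 tested miR-106a/miR-363 members was called. Of these 3, miR-363-3p lay at a log2 difference of 1.34, miR-20b-5p at 0.19 and miR-106a-5p at -0.29. Of all 479 entries tested, 83.9% were called on this scale, 82.9% higher and 1.04% lower, so a call here is the usual outcome. In both CKD libraries all 5 miR-106b/miR-25 members lay above both Sham libraries, as did 91.2% of all entries tested. Relative to the shared shift none of the 8 tested members passed the threshold, whereas 7.72% of all entries were called, 1.88% higher and 5.85% lower (limma with Benjamini-Hochberg adjustment). At an unadjusted limma p below 0.05 there was 1 of the 8 members, miR-106b-3p, against 124 of all 479 entries tested. On the recovered reads edgeR's quasi-likelihood test and DESeq2 called 0 members as well, against 6.47% and 16.1% of all entries. Of the 9 members, 8 passed the filter on low values, and miR-18b-5p, with a mean of 0.0900 CPM, did not.

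miR-25-3p, the most abundant member, ranked 73rd of 1152 entries by its mean over the libraries. It had 373 and 435 CPM in the CKD libraries, against 94.6 and 167 CPM in the Sham libraries. The groups did not overlap, and the Sham libraries differed more from each other than the CKD libraries. It averaged 404 ± 43.7 CPM in CKD and 131 ± 51.4 CPM in Sham (SD, n = 2 each), a deposited log2 difference of 1.67 (SE 0.43, adjusted p = 0.0048 by limma). Relative to the shared shift this difference was 0.09 (SE 0.19, adjusted p = 0.77 by limma). miR-93-5p, which shares targets such as Cdkn1a with miR-106b-5p, had 234 and 232 CPM in the CKD libraries, against 59.0 and 104 CPM in the Sham libraries. Its CKD values nearly coincided. It averaged 233 ± 1.34 CPM in CKD and 81.7 ± 32.1 CPM in Sham (SD, n = 2 each). Its deposited log2 difference was 1.56 (SE 0.43, adjusted p = 0.0064 by limma), and after TMM scaling it was -0.02 (SE 0.15, adjusted p = 0.95).

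The products of the Mir106b hairpin lay highest relative to the shift among the miR-106b/miR-25 members. miR-106b-5p had 186 and 139 CPM in the CKD libraries, against 31.2 and 58.2 CPM in the Sham libraries. It averaged 162 ± 33.8 CPM in CKD and 44.7 ± 19.1 CPM in Sham (SD, n = 2 each). Its groups did not overlap as deposited, with a log2 difference of 1.89 (SE 0.43, adjusted p = 0.0027 by limma). After TMM scaling it lay at 0.32 (SE 0.19, adjusted p = 0.34 by limma), and the groups overlapped, with CKD 2 at 83.5 and Sham 2 at 83.6 CPM. miR-106b-3p, the other strand of the same hairpin, had 54.9 and 61.9 CPM in the CKD libraries, against 10.4 and 16.6 CPM in the Sham libraries. It averaged 58.4 ± 4.96 CPM in CKD and 13.5 ± 4.38 CPM in Sham (SD, n = 2 each). Its deposited log2 difference of 2.07 (SE 0.36, adjusted p = 0.0011 by limma) became 0.54 after TMM scaling (SE 0.16, unadjusted p = 0.022, adjusted p = 0.12). It was the 1 member of the cluster whose CKD libraries, at 30.3 and 37.3 CPM, both stayed above the Sham libraries, at 21.7 and 23.8 CPM, after TMM scaling, as did 28% of all entries tested. miR-93-3p, the least abundant member of the cluster, had 9.18 and 8.52 CPM in the CKD libraries, against 2.97 and 3.14 CPM in the Sham libraries, with log2 differences of 1.28 as deposited (SE 0.28, adjusted p = 0.0023 by limma) and -0.05 after TMM scaling (SE 0.19, adjusted p = 0.90).

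Leaving out a CKD library ended some of the deposited calls, as it did across all entries tested, while the differences moved little. Such a fit has 1 CKD library, which is assumed to vary like the Sham libraries, and its standard errors are larger. Without CKD 1 the differences were 1.68 for miR-106b-5p (SE 0.82), 2.15 for miR-106b-3p (SE 0.76) and 1.55 for miR-93-5p (SE 0.83). They were 1.23 for miR-93-3p (SE 0.48) and 1.78 for miR-25-3p (SE 0.83). Without CKD 2 they were 2.10 for miR-106b-5p (SE 0.86), 1.98 for miR-106b-3p (SE 0.76) and 1.56 for miR-93-5p (SE 0.89). In that fit miR-93-3p lay at 1.33 (SE 0.52) and miR-25-3p at 1.56 (SE 0.90). Without Sham 1 the differences ran from 1.15 (miR-93-5p) to 1.75 (miR-106b-3p), and without Sham 2 from 1.31 (miR-93-3p) to 2.38 (miR-106b-3p).

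**Figure D2:**
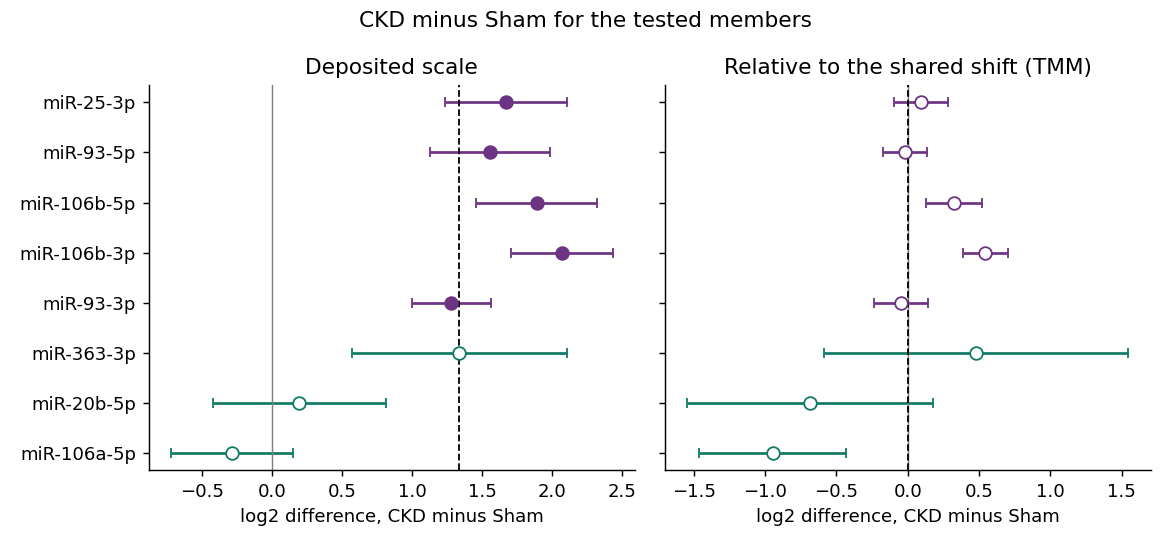
Log2 difference, CKD minus Sham, of the 8 tested members on the deposited scale (left) and relative to the shared shift (right), with bars of 1 standard error, filled points for calls by limma, purple for miR-106b/miR-25 and green for miR-106a/miR-363. The dashed line marks the median of all tested entries, 1.34 on the left and 0.00 on the right, and the only filled points are the 5 purple ones on the left.

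For each tested miR-106a/miR-363 member, libraries of at least 1 group differed by more than the groups did. miR-363-3p, which carries the miR-92a seed, had 0.860 and 14.7 CPM in the CKD libraries, against 0.290 and 2.55 CPM in the Sham libraries. CKD 2 stood far above the other 3 libraries, and Sham 2 lay above CKD 1, so the groups overlapped. The exact Poisson 95% interval was 0.479 to 1.41 CPM in CKD 1 and 12.9 to 16.7 CPM in CKD 2, and 0.0927 to 0.666 CPM in Sham 1 and 1.84 to 3.43 CPM in Sham 2. CKD averaged 7.79 ± 9.79 CPM and Sham 1.42 ± 1.60 CPM (SD, n = 2 each). The deposited log2 difference was 1.34 (SE 0.76, adjusted p = 0.12 by limma), the same as the median of all tested entries, and the TMM-scaled one 0.48 (SE 1.07, adjusted p = 0.79). Its direction turned with 1 library: without CKD 2 the deposited difference was -0.20, and without CKD 1 it was 2.88 and was called (limma adjusted p = 0.0018). That call sets CKD 2 alone against Sham, with a spread taken from the 2 Sham libraries.

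miR-20b-5p, with the miR-17 seed, had 0.910 and 4.68 CPM in the CKD libraries, against 0.40 and 4.92 CPM in the Sham libraries. CKD 2 and Sham 2 were alike and CKD 1 and Sham 1 were both low, and counting intervals did not overlap within either group, at 0.522 to 1.48 and 3.70 to 5.84 CPM in CKD and at 0.161 to 0.823 and 3.92 to 6.10 CPM in Sham. The groups differed by 0.19 on the deposited log2 scale (SE 0.62, adjusted p = 0.77 by limma) and by -0.68 after TMM scaling (SE 0.86, adjusted p = 0.64). Its deposited difference was -0.85 without Sham 1 and -0.59 without CKD 2, so its direction also rests on single libraries.

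miR-106a-5p, the paralog of miR-106b-5p and miR-17-5p, had 0.680 and 0.840 CPM in the CKD libraries (12 and 14 reads), against 0.340 and 2.43 CPM in the Sham libraries (6 and 41 reads). Only Sham 2 stood apart from the other 3, and both CKD values lay between those of Sham. The groups differed by -0.29 as deposited (log2, SE 0.43, adjusted p = 0.54 by limma) and by -0.95 after TMM scaling (SE 0.51, adjusted p = 0.31). Without Sham 1 these were -0.96 (limma adjusted p = 0.069) and -1.82 (unadjusted p = 0.0058, adjusted p = 0.14), and without Sham 2 the entry fell under the filter. On recovered reads, edgeR gave -2.26 (adjusted p = 0.20) and DESeq2 -2.23 (unadjusted p = 0.070). After TMM scaling both CKD libraries, at 0.376 and 0.506 CPM, lay below both Sham libraries, at 0.710 and 3.49 CPM, as did 31.5% of all entries tested. miR-18b-5p had 1 read in each CKD library, against 0 and 4 reads in the Sham libraries, and no difference was detectable at this depth. The 0 in Sham 1 allows up to 0.171 CPM, taking 3 reads as the floor. Its exact Poisson 95% interval reaches 0.211 CPM.

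The second library of each group held most of the reads of the miR-106a/miR-363 members, and red-cell miRNAs were higher in the same libraries. Between the Sham libraries, miR-20b-5p had the 5th largest difference from the top among the 479 tested entries (Sham 2 minus Sham 1, 2.08 on the log2(CPM + 1) scale), miR-363-3p the 16th (1.46) and miR-106a-5p the 19th (1.36), with a median of 0.44 over all tested entries. Between the CKD libraries, miR-363-3p was 5th (CKD 2 minus CKD 1, 3.08) and miR-20b-5p 13th (1.57), whereas miR-106a-5p was 101st (0.13) around a median of -0.14. miR-451a, a miRNA processed by Ago2 and abundant in red cells, was 14th between the CKD libraries (1.48) and 3rd between the Sham libraries (2.14). Red-cell entries were uneven between the CKD libraries, with 2.87 for miR-486a-5p, 0.24 for miR-144-3p and 0.84 for miR-144-5p. Between the Sham libraries these differed by 1.45, 1.79 and 2.09. The 5 red-cell entries examined (miR-451a, miR-144-3p, miR-144-5p and miR-486a-5p and miR-486b-5p, whose listed values are identical and enter the sum once each) all had reads in every library and summed to 1481 and 8070 CPM in the CKD libraries, against 296 and 1052 CPM in the Sham libraries. Most of the CKD 2 sum came from miR-486a-5p and miR-486b-5p, each at 445 CPM in CKD 1 and 3266 CPM in CKD 2. miR-144-3p held 52.9 and 62.8 CPM there. Leukocyte markers, all 5 with reads in every library, summed to 424 and 474 CPM in CKD and to 82.2 and 229 CPM in Sham. The hepatocyte miRNA miR-122-5p had 161 and 56.0 CPM in CKD and 1.43 and 25.5 CPM in Sham. The part of RNA from red cells, leukocytes or liver in these values was not tested.

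**Figure D3:**
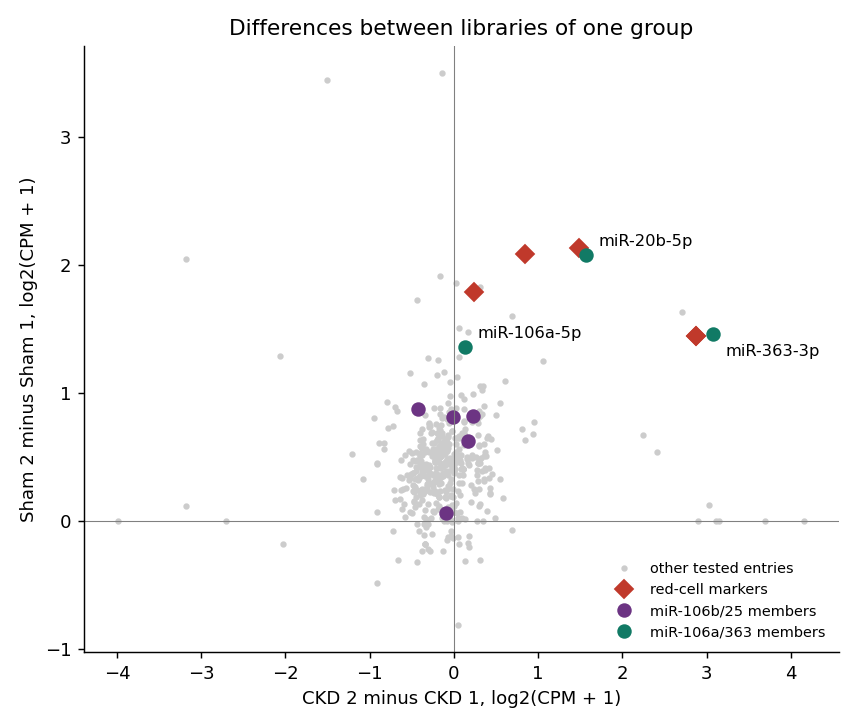
Difference between libraries of one group for the 479 tested entries, CKD 2 minus CKD 1 on the x axis and Sham 2 minus Sham 1 on the y axis, both as log2(CPM + 1). Diamonds are red-cell markers. miR-363-3p (3.08 and 1.46) sits beside miR-486a-5p and miR-486b-5p (2.87 and 1.45), and miR-20b-5p (1.57 and 2.08) beside miR-451a (1.48 and 2.14). The red-cell markers miR-144-3p and miR-144-5p lie at 0.24 and 0.84 on the x axis. The miR-106b/miR-25 members (purple) lie between -0.42 and 0.22 on the x axis and between 0.06 and 0.88 on the y axis. On the y axis miR-106b-5p (0.88), miR-25-3p (0.82), miR-93-5p (0.81) and miR-106b-3p (0.63) lie above the median of all tested entries, 0.44, and miR-93-3p (0.06) below it.

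By a fixed measure of likeness, the distance between log2(CPM + 1) values centred over the 4 libraries, 2 red-cell entries were also among the 3 nearest to miR-363-3p. It has the highest mean of its cluster through CKD 2 alone, and miR-20b-5p was higher in the other 3 libraries. Of 265 entries with a mean of at least 10 CPM, the nearest were miR-451a (distance 1.26), miR-92a-3p (1.46) and miR-144-5p (1.64), with a median distance of 2.43. miR-92a-3p is processed from the miR-106a/miR-363 and the miR-17/miR-92a hairpins with the same sequence, and had 30.5 and 205 CPM in CKD and 5.71 and 19.9 CPM in Sham. The nearest to miR-25-3p among 264 entries were miR-7a-5p (0.08), miR-494-3p (0.11) and miR-335-5p (0.12), with a median distance of 0.58. miR-7a-5p, known to repress the growth factor receptor gene Egfr, had 174 and 214 CPM in CKD and 42.9 and 78.4 CPM in Sham. These are descriptions over 4 libraries.

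Ratios of members within a library do not depend on the scaling. miR-106b-5p exceeded miR-106a-5p by 272 and 165 times in the CKD libraries and by 91.2 and 24.0 times in the Sham libraries. The CKD ratios lay above both Sham ratios, and the share of other ratios that separate the groups was not determined. The miR-106a-5p values rest on 12 and 14 reads in CKD and on 6 and 41 reads in Sham. miR-93-5p exceeded miR-20b-5p by 256 and 49.5 times in CKD and by 148 and 21.2 times in Sham, with overlap. miR-25-3p exceeded miR-363-3p by 436 and 29.6 times in CKD and by 331 and 65.6 times in Sham, also with overlap. The log2 ratio of the cluster sums averaged 6.92 ± 2.11 in CKD and 6.35 ± 1.76 in Sham (SD, n = 2 each), a difference of 0.57 that is smaller than the spread within either group. Its direction turned without CKD 1 (-0.92) and without Sham 2 (-0.67). With 2 libraries a group, an exact permutation test of such a ratio cannot go below a two-sided p of 0.333, so no test was made and the clusters were not shown to respond differently.

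Within miR-106b/miR-25 the order of levels was the same in all 4 libraries: miR-25-3p, miR-93-5p, miR-106b-5p, miR-106b-3p and miR-93-3p. miR-25-3p took 43.5% and 49.7% of the reads of the cluster's members in CKD, against 47.7% and 47.8% in Sham. miR-93-5p took 27.3% and 26.5% in CKD, against 29.8% and 29.9% in Sham. miR-106b-5p took 21.7% and 15.8% in CKD, against 15.8% and 16.6% in Sham, and CKD 1 stood apart from the other 3 libraries. The share of miR-106b-3p was 6.40% and 7.06% in CKD, against 5.24% and 4.75% in Sham, and that of miR-93-3p 1.07% and 0.973% in CKD, against 1.50% and 0.898% in Sham. For each read of miR-93-5p there were 0.797 and 0.598 reads of miR-106b-5p in CKD, against 0.529 and 0.557 in Sham. The CKD ratios lay above both Sham ratios, but an exact permutation test here cannot go below a two-sided p of 0.333. The share of other ratios that separate the groups was not determined. For miR-106a/miR-363 the shares are of the reads of its 4 members, which leave out miR-19b-3p and miR-92a-3p, also encoded there. Of these reads miR-363-3p took 34.1% and 72.5% in CKD, against 27.8% and 25.1% in Sham. Its Wilson 95% interval in CKD 2, from 67.5% to 77.0%, lay clear of the other 3. miR-20b-5p took 36.4% and 23.1% in CKD, against 38.9% and 48.5% in Sham.

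**Figure D4:**
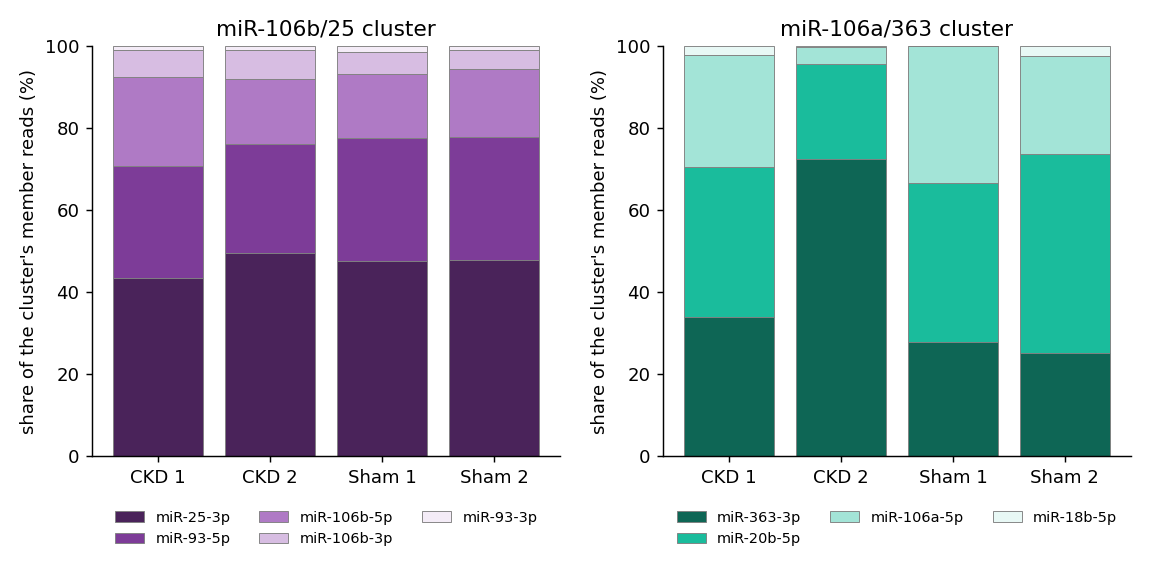
Share of each member in the summed reads of its cluster's members, in percent, for miR-106b/miR-25 (left) and miR-106a/miR-363 (right), by library. miR-19b-3p and miR-92a-3p, which miR-106a/miR-363 also encodes, are left out. The left bars are nearly alike, with miR-25-3p between 43.5% and 49.7%, while miR-363-3p makes up 72.5% of the right bar of CKD 2 and at most 34.1% elsewhere.

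The 3 hairpins of miR-106b/miR-25 are shown because the strands of each were read at unequal levels, least so for Mir106b. Capitals mark the mature strands, the 5p strand first.
Mir106b: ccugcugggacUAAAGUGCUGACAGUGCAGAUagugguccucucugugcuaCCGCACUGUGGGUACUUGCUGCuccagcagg
Mir93: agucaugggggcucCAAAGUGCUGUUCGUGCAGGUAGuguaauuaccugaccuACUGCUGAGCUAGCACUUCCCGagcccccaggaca
Mir25: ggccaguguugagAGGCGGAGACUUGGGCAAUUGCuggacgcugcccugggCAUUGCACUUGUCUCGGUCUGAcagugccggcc
miR-106b-5p exceeded miR-106b-3p by 3.40 and 2.24 times in the CKD libraries and by 3.01 and 3.51 times in the Sham libraries. miR-93-5p exceeded miR-93-3p by 25.5 and 27.2 times in CKD and by 19.9 and 33.2 times in Sham. For Mir25 the 3p strand led, with miR-25-3p above miR-25-5p by 187 and 345 times in CKD and by 331 and 217 times in Sham. In each hairpin the CKD and Sham ratios overlapped. Of the 7 other strands looked for, 4 were listed, and of these miR-25-5p passed the filter, with 2.00 and 1.26 CPM in CKD against 0.290 and 0.770 CPM in Sham and a deposited log2 difference of 0.79 (SE 0.35, adjusted p = 0.055 by limma), which was 0.07 after TMM scaling (SE 0.27, adjusted p = 0.90).

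The miR-106b/miR-25 members and the miR-17/miR-92a products supplied the miR-17 seed in about equal amounts, and miR-106a/miR-363 supplied little of it. A RefSeq sequence, and so a seed, was available for 900 of the 1152 entries, and the shares hold for these. Of the reads of the 6 such miRNAs with this seed, miR-93-5p and miR-106b-5p made up 52.2% and 49.7% in the CKD libraries, against 56.6% and 54.4% in the Sham libraries. miR-20b-5p and miR-106a-5p made up 0.198% and 0.740% in CKD, against 0.466% and 2.46% in Sham. The seed group as a whole summed to 775 ± 41.7 CPM in CKD and 229 ± 98.8 CPM in Sham (SD, n = 2 each). Of the 5 miRNAs with the miR-92a seed, miR-25-3p made up 87.2% and 64.1% in CKD, against 89.4% and 85.1% in Sham. Its lower share in CKD 2 stood beside 33.7% for miR-92a-3p, miR-92b-3p and miR-32-5p together. These 3 made up 12.6% in CKD 1 and 10.3% and 13.6% in the Sham libraries. Since miR-106a/miR-363 also encodes miR-92a-3p, the share of that whole cluster in this seed was not determined.

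**Figure D5:**
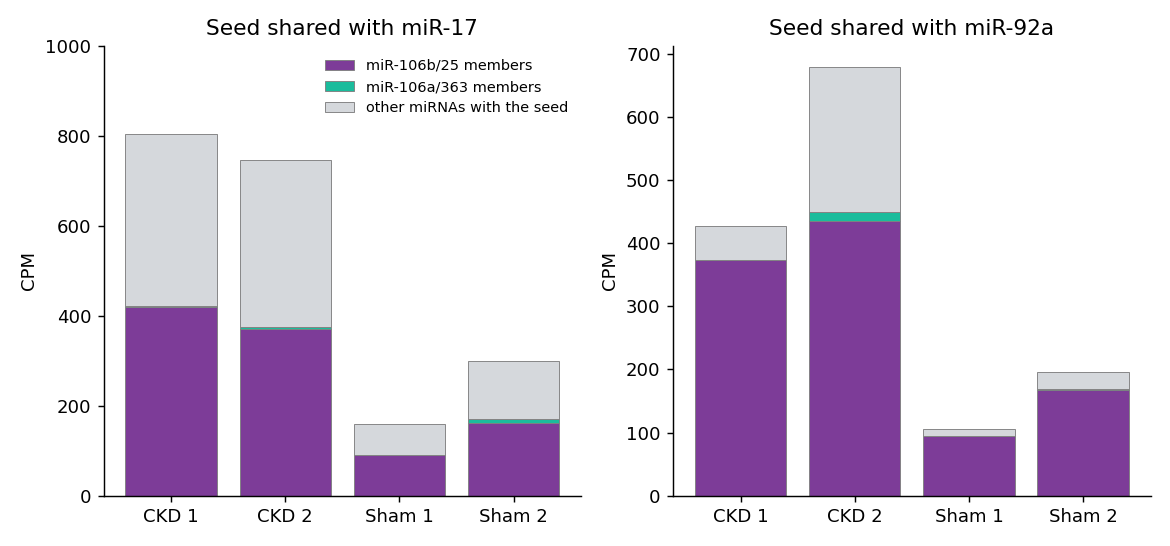
Summed CPM of the listed miRNAs with the seed of miR-17 (left) and of miR-92a (right), by library, among entries with a RefSeq sequence. Bars are split into miR-106b/miR-25 members, miR-106a/miR-363 members and other miRNAs. The purple miR-106b/miR-25 part is 49.7% to 56.6% of each left bar and 64.1% to 89.4% of each right bar. The green part, the miR-106a/miR-363 members, is at most 2.46%. miR-92a-3p, which miR-106a/miR-363 also encodes, is counted with the other miRNAs.

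The relatives on the list of miR-17/miR-92a products and seed relatives had the same calls as the miR-106b/miR-25 members. Of its 14 names 13 were listed and 11 tested. All 11 were called higher as deposited (82.9% of all entries were), with a median log2 difference of 1.75. Relative to the shift 0 passed by limma, with a median of 0.35. At an unadjusted limma p below 0.05 there were 3 of the 11, against 124 of all 479 entries tested. By comparison the tested miR-106b/miR-25 members had medians of 1.67 and 0.09, and the tested miR-106a/miR-363 members of 0.19 and -0.68. miR-17-5p, the founding member, had 197 and 193 CPM in CKD, against 34.3 and 63.6 CPM in Sham. miR-106a-5p, which differs from it by 1 base, stood at 0.347% and 0.436% of it in the CKD libraries, against 0.998% and 3.82% in the Sham libraries. miR-20b-5p stood at 0.491% and 2.65% of miR-20a-5p in CKD, against 1.17% and 7.52% in Sham. For each read of miR-20a-5p there were 1.26 and 1.31 reads of miR-93-5p in CKD, against 1.73 and 1.60 in Sham. Neither miR-106a-5p nor miR-20b-5p was a constant share of its neighbour, and whether neighbour reads enter these low values was not tested.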

How the data were processed

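Small RNA libraries of 2 CKD and 2 Sham aorta pools were analysed, grouped by their titles. Per the submitters' processing notes, Bowtie and GRCm38 were used; no version, miRNA annotation, counting rule or treatment of multiply matching reads is stated. The authors deposited values with 2 decimals that sum to about 1000000 per library and were read as CPM. In 3 deposited files a single column lists all names and then all values (other layout), which were paired by order. Every value above 0 gave a whole read count to within 0.005 CPM. Libraries of a group differed by more than sampling noise (chi-square divided by its degrees of freedom 367 in CKD and 515 in Sham).

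limma 3.58.1 with a variance trend was run in R 4.3.3 on log2(CPM + 1), keeping the 479 entries whose mean reached 1 CPM, two-sided, with Benjamini-Hochberg adjustment and a threshold of 0.05; this scale understates changes of low entries. TMM factors (edgeR 4.0.16; 1.81 and 1.66 in CKD, 0.479 and 0.696 in Sham) gave the second scale. Alternatives included edgeR's quasi-likelihood test, DESeq2 1.42.0, other scalings, filters and pseudocounts, the replicate number as a block, and leaving out each library. Named entries were the members, their other strands, the miR-17/miR-92a products with 2 seed relatives, cell markers, and the 3 entries nearest to each cluster's leading member. Members and lists were chosen with earlier results of these data known. The scripts were tested on simulated counts.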

Additional observations from a re-analysis of the deposited data

How the results depend on the processing

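The call of 0 members relative to the shared shift held under every alternative run, and the 5 deposited calls held with other pseudocounts and without the trend. The deposited count of called entries was 402, and 241 with a mean of at least 10 CPM, where fewer entries were tested; leaving out 1 library gave 137 to 384 entries and 2 to 5 members. With near-identical miRNAs summed, 8 of 9 members were called on the deposited scale, where 84.9% of all entries were called. Each sum is mostly its miR-17/miR-92a neighbour. The sum with miR-106a-5p lay at 2.01 (deposited) and 0.45 (relative to the shift), and that with miR-20b-5p at 0.32 (relative to the shift). Relative to the shift 37 entries were called (9 higher, 28 lower), 21 with no filter, 77 by DESeq2, and 28 (14 higher, 14 lower) with library totals without miR-143-3p, an alternative chosen after seeing the data, and 0 to 7 without 1 library (0 without either CKD library, with 92 and 109 at an unadjusted p below 0.05; the cause was not tested). The fit with the replicate block called 10 entries relative to the shift. On the deposited scale it called 6 of 8 members, against 73.5% of all entries, the sixth being miR-363-3p (limma adjusted p = 0.0048). The samples share only a number: their deviations correlated at 0.0999 as deposited and 0.118 after TMM scaling, over 2 numbers. The log2 ratio of the cluster sums, 0.57, ran from -0.92 (without CKD 1) to 2.07 without 1 library, and was -0.67 without Sham 2. Uncalled values near 0 changed sign: miR-93-5p to 0.0092 with no filter, 0.0089 by DESeq2, 0.032 with a mean of at least 10 CPM, 0.016 with median-of-ratios factors and 0.24 with library totals without miR-143-3p as scaling, which also put miR-93-3p at 0.17, and miR-25-3p to -8.6e-04 with upper-quartile factors. Without 1 library, which leaves a group of 1 assumed to vary like the other group, deposited differences ran from -0.85 to 1.23 for miR-20b-5p, from -0.20 to 2.88 for miR-363-3p and from -0.96 to -0.22 for miR-106a-5p; relative to the shift they ran from -0.18 to 0.13 (miR-93-5p), -0.24 to 0.13 (miR-93-3p), -0.071 to 0.26 (miR-25-3p), -1.82 to -0.81 (miR-106a-5p), -1.88 to 0.40 (miR-20b-5p) and -0.83 to 1.75 (miR-363-3p). Depth limits miR-18b-5p and miR-106a-5p, at 0 to 4 and 6 to 41 reads a library.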
